A study of Mus musculus with 6 samples.

Results

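The expression of 8 genes of the Schwann cell lineage was followed through cultured mouse retinal pigment epithelium (RPE) and choroid, among 52636 genes counted in 25428 single cells. The genes were Sox10, Ngfr, Gfra3, Cdh19, S100b, Pou3f1, Egr2 and Erbb3, found by their symbols among the deposited gene identifiers. They were selected on earlier values of these same data, in which they marked the 308 cells named Pericyte by the depositors and in which Pou3f1 stood out between genotypes. Their levels across cell types and their genotype values in those cells are therefore given as a description.

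Cells were taken from male C57BL/6J mice aged 12-16 months, with 3 replicates per genotype (Dram2 wt/wt or Dram2 ko/ko) and no treatment. Dram2 ko/ko mice carry a constitutive CRISPR deletion of exon 4, so that every cell of the animal lacks it, and wt/wt mice carry intact Dram2. The dissected choroid with its RPE was dissociated and cultured before collection, so the cells had grown away from axons and blood flow. Batch 1 held 5 samples and batch 2 held only Dram2 ko/ko replicate 3. The labels number the samples but do not say that each came from a separate animal, so p-values measure the spread between these samples, which may be technical.

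Schwann cells are the glia of peripheral nerves, and in the choroid they accompany the nerve fibres that reach its vessels. Their precursors derive from the neural crest under the transcription factor Sox10, pass through an immature stage, and then either myelinate large axons or stay as non-myelinating cells around small ones. Pou3f1 (also called Oct6 or SCIP) is switched on in promyelinating cells and precedes Egr2 (Krox20), which drives the myelin genes. After injury, or when placed in culture without axons, Schwann cells lose myelin transcripts, regain immature genes such as Ngfr and Sox2, and can divide.

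The samples held 2140 to 6648 cells each and 96808998 to 122746184 unique molecular identifiers (UMIs, the molecule counts of the 3′ library). Of the 308 cells named Pericyte, 74, 38 and 32 came from Dram2 wt/wt replicates 1 to 3, and 17, 124 and 23 from the Dram2 ko/ko replicates. Their median UMI count was 18272, 17074 and 19479 in the wt/wt samples and 23133, 10505 and 18278 in the ko/ko samples. They made up 1.17% ± 0.667 (SD, n = 3) of wt/wt cells and 1.08% ± 0.685 (SD, n = 3) of ko/ko cells, a difference within the spread of samples (exact two-sided permutation p 0.6, where the smallest possible is 0.1). Dram2 itself was measured at 33.4 to 39.6 CPM (UMIs of a gene scaled to a common total per library) in wt/wt libraries and 28.3 to 30.7 CPM in ko/ko libraries, but a 3′ tag outside the deleted exon does not check the genotype. Scrublet marked 0 of the 308 cells as doublets, but it marked only 0.0275% of all cells and so cannot be taken to have removed them.

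The genes lie on GRCm38 as follows. Sox10, a high-mobility-group transcription factor that every stage of the lineage needs, spans chr15:79154908-79165240 on the minus strand in 5 exons. Ngfr, the low-affinity neurotrophin receptor p75, lies at chr11:95568818-95587735, also on the minus strand. Cdh19, a cadherin of Schwann cell precursors and their progeny, lies at chr1:110888326-110977584 on the minus strand, where it overlaps the gene models Gm38255 and Gm36944 of the same strand. Erbb3, the receptor through which axonal neuregulin reaches Schwann cells, lies at chr10:128567523-128589652 on the minus strand and contains Mir6917. S100b, a calcium-binding protein of glia, lies at chr10:76253853-76261159 on the plus strand and overlaps Dip2a on the other strand. Pou3f1 consists of 1 exon at chr4:124656807-124660655 on the plus strand and overlaps Gm2164 on the other strand. Whether counting used the strand is not given in the sources used here. Whether reads of the pairs on opposite strands were kept apart is therefore not known here. For the same-strand overlaps of Cdh19 and Erbb3 the strand cannot tell reads apart. Egr2, a zinc-finger transcription factor, lies at chr10:67535475-67542188 on the plus strand. Gfra3 encodes the co-receptor that binds artemin together with Ret. No 31-base word from the final 400 bases of any transcript of these 8 genes was shared with a transcript of another gene read in the same direction. Reverse complements were not searched, so this does not cover the overlaps on opposite strands.

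Promoters of Ngfr, S100b and Egr2 are shown because these 3 of the 8 genes were matched to an entry of the promoter table. No entry was matched for the other 5. Each run is RefSeq sequence of GRCm38.p6 on the strand of the gene, 200 bases that end 50 bases before the listed start, with CCGCCC or its reverse GGGCGG, the core of a GC box, in capitals. The windows are chr11:95587749-95587948 on the minus strand, chr10:76253586-76253785 on the plus strand and chr10:67535249-67535448 on the plus strand, the last being the first of 5 listed Egr2 starts.
Ngfr: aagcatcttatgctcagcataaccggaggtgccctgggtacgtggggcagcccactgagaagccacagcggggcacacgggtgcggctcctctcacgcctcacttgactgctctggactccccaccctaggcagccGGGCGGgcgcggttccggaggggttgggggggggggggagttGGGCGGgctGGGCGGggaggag
S100b: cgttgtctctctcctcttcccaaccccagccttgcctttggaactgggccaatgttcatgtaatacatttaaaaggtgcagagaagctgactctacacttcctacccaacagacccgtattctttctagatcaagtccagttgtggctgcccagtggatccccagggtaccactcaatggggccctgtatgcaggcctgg
Egr2: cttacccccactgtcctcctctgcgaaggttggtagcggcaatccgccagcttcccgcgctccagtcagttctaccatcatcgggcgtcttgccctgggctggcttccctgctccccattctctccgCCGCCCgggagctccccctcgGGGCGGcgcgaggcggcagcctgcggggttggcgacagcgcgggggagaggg
The Ngfr window held the GC box core 3 times and was 70% G and C, the Egr2 window shown held it 2 times at 70.5% G and C (the windows of the other 4 Egr2 starts held none at 50.5% to 64.5%), and the S100b window held none at 52%. Over all 32851 listed promoters, 24.6% of windows of this length held it on either strand. The SOX-type words ACAAAG and ACAATG, searched on both strands, were found in 13.6% and 8.94% of all windows and in none of these 3.

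All 8 genes, which were chosen for marking the cells named Pericyte, had their highest mean level there, as did 23.8% of the 21306 genes with a UMI in these cells. In these cells Sox10 averaged 179 CPM ± 36.5 (SD, n = 6 samples), and the next type was RPE with 3.11 ± 2.01. Ngfr averaged 407 CPM ± 80.8 against 0.636 ± 0.258 in Fibroblast 2, its second type. Cdh19 averaged 102 CPM ± 37.0 against 0.796 ± 0.469 in RPE, and Erbb3 58.5 CPM ± 19.8 against 1.42 ± 2.84 in Myeloid. Myeloid was measured in 4 samples, those with 10 or more of its cells. The lowest Pericyte sample lay above the highest sample of the second type for all 4.

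Gfra3, S100b and Pou3f1 were also apart from every other type. For Gfra3 this rests on a single UMI in the lowest Pericyte sample, Dram2 ko/ko replicate 1, at 2.27 CPM with Gfra3 in 1 of 17 cells. Gfra3 averaged 75.0 CPM ± 57.6 in Pericyte and 0.0805 ± 0.127 in Fibroblast 2, and Pou3f1 averaged 40.7 CPM ± 21.9 in Pericyte and 0.291 ± 0.186 in Fibroblast 2. S100b averaged 50.6 CPM ± 26.6 in Pericyte and 5.71 ± 2.01 in Fibroblast 2, with between 0.501 and 3.09 in the remaining types. Below the first rank, neighbouring types overlapped in their sample ranges for all members apart from Fibroblast 2 over Fibroblast for Egr2 and the step from the lowest detected type to types at 0 for Ngfr, Cdh19 and Pou3f1.

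Egr2 did not separate Pericyte from Fibroblast 2. It averaged 14.6 CPM ± 15.6 in Pericyte, where samples ran from 4.35 to 45.4, and 6.96 ± 2.14 in Fibroblast 2, where they ran from 4.24 to 9.53. Fibroblast followed with 3.41 ± 0.395 and Fibroblast proliferating with 3.11 ± 0.522. Fibroblast lay below Fibroblast 2 in all samples and overlapped with Fibroblast proliferating. In Endothelial cells 6 of the 8 genes had no UMI, which over 288 cells allows a level of up to 0.835 CPM.

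**Figure D1:**
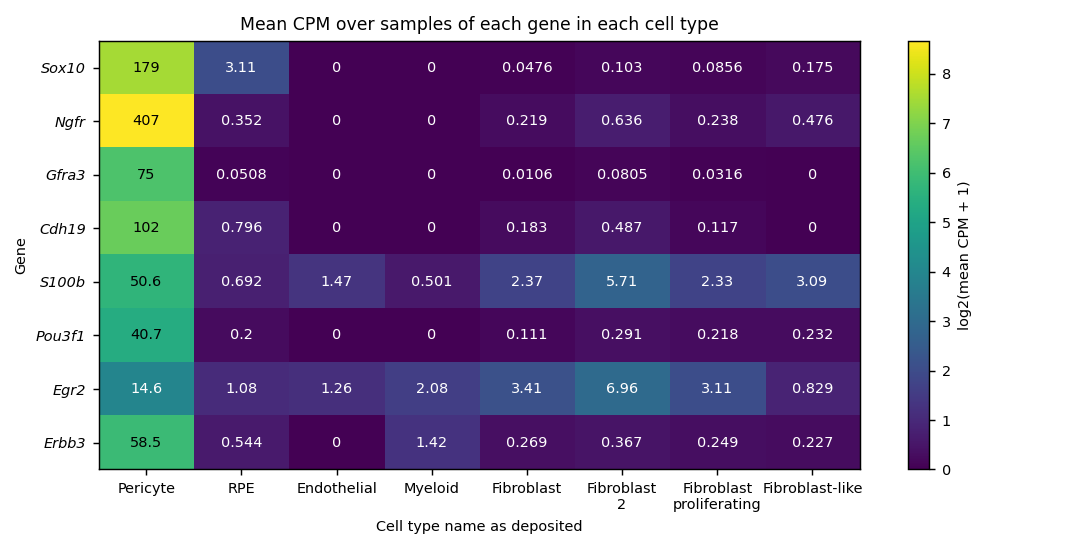
Mean CPM over samples with 10 or more cells (number in each square; colour, log2 of mean CPM + 1) for the 8 genes (rows) in the 8 deposited cell types (columns). The Pericyte column is highest in every row, from 14.6 CPM for Egr2 to 407 CPM for Ngfr, and S100b and Egr2 show the widest background in the other columns.

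The name Pericyte was set against marker genes. Of 10 pericyte markers, Kcnj8, Higd1b and Ndufa4l2 had no UMI among the 5333549 UMIs of these cells, which allows up to 0.562 CPM, and 6 of 10 averaged under 5 CPM in them. Pdgfrb, a receptor of mural cells, averaged 29.4 CPM ± 7.87 (n = 6), below the 93.6 ± 18.0 of Fibroblast 2. Cspg4 (NG2) was the exception, with 199 CPM ± 27.5 against 48.5 ± 5.91 in Fibroblast proliferating, and it is also known from immature Schwann cells. Of 16 genes listed for immature Schwann cells, 12 were highest in the cells named Pericyte, and of 21 listed for myelinating cells 17 were. With the members left out and at 5 CPM or more in these cells, the counts were 10 of 14 and 9 of 10, where 23.4% of all 10738 genes at that level were highest there. The floor was set on these same cells and dropped the 9 myelinating genes that averaged under 5 CPM. The lists were chosen with earlier results of these data known, so the counts are a description. Among the 10 immature genes Ednrb stood at 13.5 CPM against 13.2 in Endothelial. These cells are therefore called by their deposited name below, although most of the defining pericyte transcripts were at or near 0 in them.

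Markers of other cells, among them further cells known to express Sox10, were also looked up. The melanocyte genes Tyr, Dct, Mlana and Tyrp1 and the oligodendrocyte genes Olig2, Mog, Opalin and Mobp had no UMI in the cells named Pericyte. Neuronal Rbfox3, Snap25 and Syt1 had none, while Tubb3 averaged 377 CPM ± 141. Endothelial, myeloid and RPE markers summed to at most 5.13, 13.1 and 13.6 CPM in any Pericyte sample, with Pecam1, C1qa, Rpe65 and Otx2 at 0. Of the retinal glia genes Aqp4 was at 0 and Apoe averaged 97.5 CPM ± 43.4 against 5871 in Myeloid. Among fibroblast markers Col1a1 averaged 1729 CPM ± 256, more than in any other type, whereas Dcn averaged 51.8 ± 55.5 against 2536 in Fibroblast 2. The summed level of the 6 fibroblast markers ranged from 2169 to 2920 CPM in the wt/wt samples and from 1798 to 1974 CPM in the ko/ko samples. Most of this sum was Col1a1, and 5.68% of the single genes tested between genotypes lay lower in all ko/ko samples.

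Detection per cell differed widely among the 8 genes. Shares at fixed depth are those expected when each cell is thinned to 8000 UMIs (255 of 308 cells named Pericyte reached that depth). By this measure 89.0% of these cells held a UMI of Ngfr, 72.6% of Sox10, 50.3% of Cdh19 and 32.2% of Erbb3. The values were 21.0% for S100b, 20.6% for Gfra3, 20.1% for Pou3f1 and 6.79% for Egr2. In RPE cells at the same depth (1142 of 1492 cells) the share was 1.09% for Sox10 and 0.298% for Ngfr. Egr2 was found in 5.16% of Fibroblast 2 cells at this depth, close to its share in Pericyte. Without thinning, when the median depth was 13598 UMIs in Pericyte and 22906 UMIs in RPE, the Pericyte shares were 93.8% for Ngfr, 82.8% for Sox10, 28.9% for Pou3f1 and 13.6% for Egr2.

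Sox10 and Ngfr were both found in most cells, and their joint detection varied with depth. Of the 255 cells with a Sox10 UMI, 249 also held Ngfr (97.6%), compared with 75.5% of the cells without Sox10. In a single random draw of 8000 UMIs from each of the 255 cells that reached this depth, the shares were 91.2% and 83.9%. The r of the pair was 0.14 in that draw against 0.33 without thinning. No cell held all 8 genes, 13 cells held 7, and 7 cells held none at a median of 7849 UMIs. The largest count in a single cell was 37 UMIs for Ngfr, 22 for Sox10, 20 for Gfra3 and for S100b, 13 for Pou3f1 and 6 for Egr2. Gfra3 was unevenly spread, with 224 cells at 0 and 34 cells with 5 or more UMIs.

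Outside the cells named Pericyte, Sox10 was found mainly in RPE, where 55 of 1492 cells held a UMI and 9 held 2 or more. Only 3 of these 55 RPE cells also held Ngfr. A UMI of Tyr, Dct, Mlana, Slc45a2, Pmel or Tyrp1, genes of pigment cells, was present in 61.8% of them and in 14.6% of the RPE cells without Sox10. These shares use all UMIs, and the depth of RPE cells with and without Sox10 was not matched. In Fibroblast, Fibroblast 2, Fibroblast proliferating and Fibroblast-like cells, 17, 8, 14 and 1 cells held Sox10 and none of these held one of those pigment genes, which only 0.268% to 1.597% of the cells without Sox10 held, so that a count of 0 tells nothing there.

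Genes with a pattern like that of Sox10 across the 46 sums of a sample and cell type were Cfap299 (Pearson r 0.99), Fgf5 (0.98), Cdh19 (0.98), Frmpd1 (0.97) and Gldn (0.97) among 23018 genes compared. The points share libraries, and these r reflect that each gene was high in the same 6 Pericyte sums. Gldn encodes gliomedin, which Schwann cells deposit at nodes of Ranvier.

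Genes of several Schwann cell stages were present side by side in the cells named Pericyte. Among immature genes, Nes averaged 991 CPM ± 140, Sox2 240 CPM ± 63.0 and Ncam1 209 CPM ± 61.6 (SD, n = 6). Sox2, which holds back myelination, was at 0.516 CPM in its next type, whereas Ncam1 was at 249 CPM in RPE. L1cam, an adhesion molecule of immature and non-myelinating cells, averaged 69.5 CPM ± 8.57 against 0.904 in Endothelial. Of the 16 genes, which include Ngfr and Gfra3, 13 averaged 20 CPM or more.

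Repair-associated genes were partly present. Of 17 genes 11 were highest in these cells, and with Ngfr left out and at 5 CPM or more the count was 8 of 14. Of all genes at that level 23.4% were highest there, and this floor too was set on these same cells. Uchl1 averaged 625 CPM ± 65.1 and Jun, the transcription factor of the repair state, 520 CPM ± 60.9, but Jun was at 522 CPM in Endothelial and so did not mark these cells. The trophic factors Gdnf (91.2 CPM ± 23.9) and Artn (33.2 CPM ± 14.1) were above their next types at 9.61 and 0.562 CPM. Other secreted factors of the list were higher elsewhere, with Bdnf at 61.5 CPM against 471 in Fibroblast, Lif at 53.2 CPM against 288 in Fibroblast 2 and the chemokine Ccl2 at 40.8 CPM against 1165 in Fibroblast 2. Shh and Olig1, which injured nerves induce, were at 0.367 and 0.122 CPM, from 3 UMIs and 1 UMI in all.

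Myelin genes ranged from abundant to barely detected. Cadm4 averaged 447 CPM ± 81.1 and Pmp22 425 CPM ± 63.3. Of the 21 genes, 9 averaged under 5 CPM, among them Mag, Prx, Pllp, Gjb1, Fa2h and Drp2. Scn7a, a sodium channel of non-myelinating Schwann cells, averaged 115 CPM ± 64.7 against 0.22 in Fibroblast 2.

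**Figure D2:**
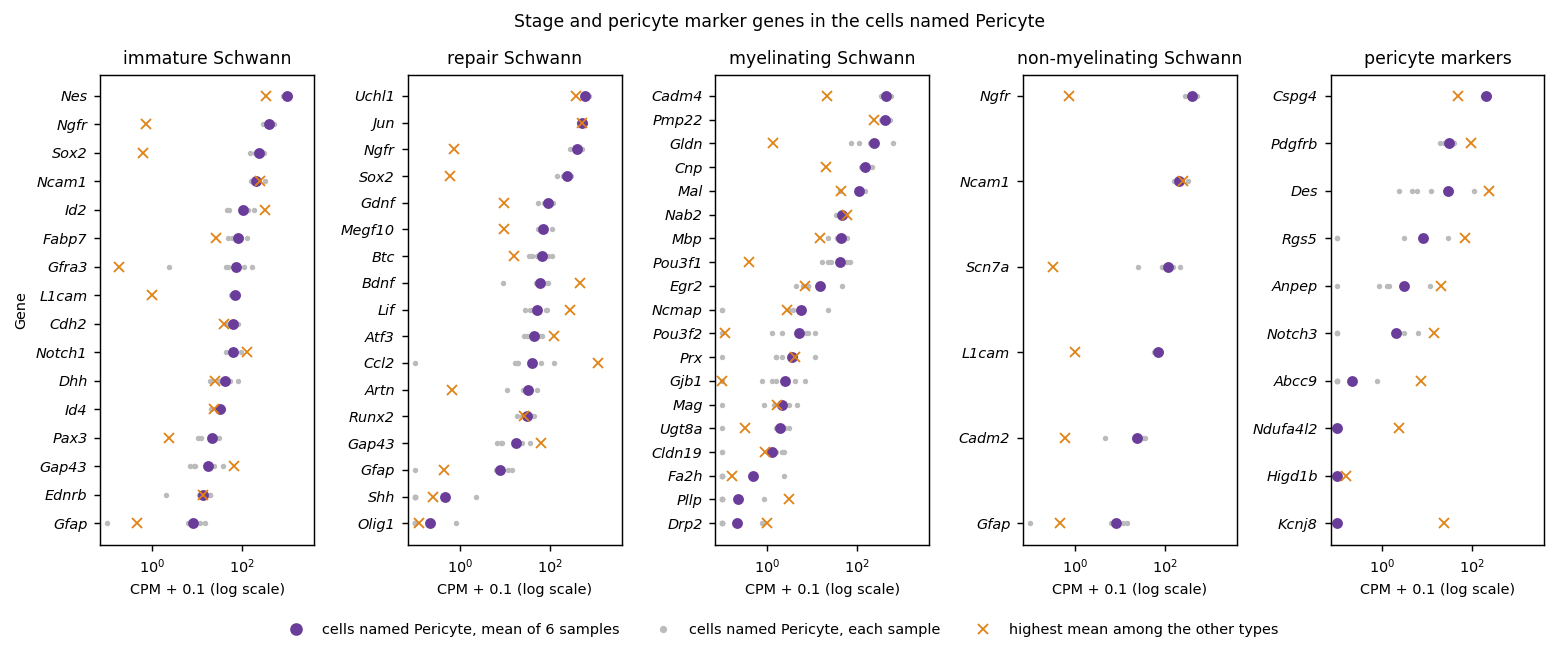
Level of the stage and pericyte marker genes reported here (rows) on a log axis of CPM + 0.1, with the mean of 6 Pericyte samples (filled circle), each Pericyte sample (grey point) and the highest mean among the other types (cross). Sox2 (240 against 0.516 CPM) and Scn7a (115 against 0.22) lie far from their crosses, whereas Kcnj8, Higd1b and Ndufa4l2 sit at 0.

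Per cell, genes of each stage list were found, but the lists share genes. At 8000 UMIs the median cell named Pericyte held 6 of 16 immature, 6 of 17 repair and 5 of 21 myelinating genes. Ngfr (in 89.0% of these cells) and Sox2 (75.4%) count in both the immature and the repair list. Ngfr, Gfra3, Pou3f1 and Egr2 were chosen for marking these cells. They are in the lists, so the comparison with other types is partly fixed in advance. RPE cells held 3, 3 and 1 and Fibroblast 2 cells held 2, 4 and 1 of the same lists. Over the 6 samples the median ran from 6 to 7 immature genes in both genotypes, and it was 5 myelinating genes in every sample except Dram2 wt/wt replicate 2, with 5.5.

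Receptors and ligands that work with the members were unevenly present. Erbb2, the signalling partner of Erbb3, averaged 17.7 CPM ± 6.58, whereas Nrg1 averaged 7.13 CPM ± 8.35 and was higher in RPE at 29.1. Ret, Nrg2 and Nrg3 had no UMI in the cells named Pericyte. The other GDNF-family co-receptors Gfra1 and Gfra2 averaged 89.2 CPM ± 45.7 and 51.9 CPM ± 5.28 and were at 1.41 and 1.34 CPM in their next types. Among related genes, Sox8 averaged 3.89 CPM and Sox9 3.45 CPM, and Pou3f3, Egr4, Erbb4 and Cdh7 had no UMI.

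Gfra3 had 5 or more UMIs in some cells named Pericyte and none counted in most, which at this depth does not show that they lack it. Across the 308 cells, on log2(CPM + 1), Gfra3 correlated with Scn7a (r 0.66), with S100b (r 0.59) and with Cadm2 (r 0.51), and inversely with Gfra1 (r −0.32). Mal, of the myelinating list, also went with Gfra3 (r 0.44, 0.43 within samples and 0.48 after thinning). The cells share libraries and differ in depth. Within samples the r with Scn7a and with S100b were 0.66 and 0.59, and after thinning to 8000 UMIs they were 0.62 and 0.67. Dram2 ko/ko replicate 1 held 1 cell with Gfra3 of 17, and the r of single samples for Gfra3 and S100b ranged from −0.09 to 0.68. Fxyd1, Ptprz1 and Apoe, the last of which is also in the retinal glia list, had r of 0.60 with Gfra3 and were singled out after their values were seen.

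The levels behind these correlations were taken by summing cells with and without a Gfra3 UMI in the 5 samples with 5 or more positive cells. The split was chosen after the values were seen and uses the same cells, so it restates the correlations and adds no support to them. Cells with Gfra3 held 325 CPM ± 168 of Scn7a and cells without it 44.6 ± 19.8 (SD, n = 5), higher in 5 of 5 samples. S100b stood at 137 ± 42.5 and 21.2 ± 10.7, and Erbb3 at 104 ± 35.6 and 40.7 ± 16.7, each higher in 5 of 5. Mal, of the myelinating list, was at 250 ± 63.8 and 70.8 ± 11.2, also higher in 5 of 5. Gldn went the other way with 98.5 ± 69.2 and 197 ± 78.2, as did Gfra1 with 30.0 ± 20.8 and 95.5 ± 35.5, each lower in 5 of 5. Ngfr was at 420 ± 160 and 414 ± 82.6 and Sox10 at 192 ± 49.9 and 176 ± 47.0, higher with Gfra3 in 3 and in 2 of 5 samples. The median depth was 14303 UMIs with Gfra3 and 13360 UMIs without it.

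Egr2 had an r of −0.15 with Gfra3 and of −0.078 after thinning. Of the 42 cells with Egr2, 6 also held Gfra3, where 84 of all 308 cells did. Gldn and Gfra1 went together (r 0.47, 0.37 within samples and 0.34 after thinning). Of the 28 pairs among the 8 members, 5 had an r of 0.3 or more and none reached −0.3. The count was 3 within samples and 3 after thinning, and Gfra3 with S100b and S100b with Erbb3 were in both. Pou3f1 had no close partner among 10134 genes detected in 10% of these cells, with Aldh1a3 (r 0.30), Syngr1 (0.27), Pnck (0.27), Rarres2 (0.23) and Rasgef1c (0.22) the nearest, values too low to read in sparse counts.

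**Figure D3:**
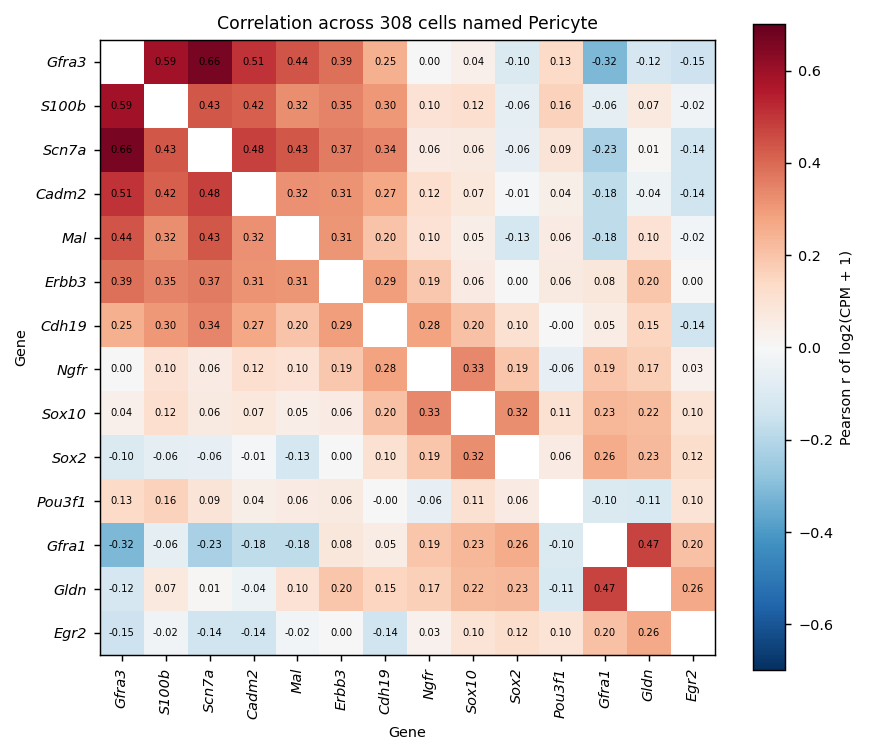
Pearson r of log2(CPM + 1) across 308 cells named Pericyte for the 8 members and 6 further genes chosen after the values were seen (rows and columns; colour and number, r). Gfra3, S100b, Scn7a and Cadm2 form one block with r from 0.42 to 0.66, and Gfra1 and Gldn go together with r 0.47 (0.37 within samples). Mal, of the myelinating list, has r 0.44 with Gfra3 and 0.43 with Scn7a.

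Whether the members differ between genotypes was examined in the cells named Pericyte, with wt/wt and ko/ko sums compared by voom-limma over 8454 genes. Only 1 gene was called in all at an adjusted p under 0.05 (0.0118% of those tested; 499 genes at an unadjusted p under 0.05), and it was not a member. Rps20, a ribosomal protein gene, measured 666, 692 and 708 CPM in wt/wt and 325, 213 and 184 CPM in ko/ko (log2 fold change −1.58 ± 0.18 SE, voom-limma adjusted p 0.0276). Its count is uncertain, since 37.8% of the 31-base words of its 3′ ends occur in 9 other genes, and the edgeR quasi-likelihood test called 0 genes (430 at an unadjusted p under 0.05) and DESeq2 called 22. Of the DESeq2 calls 20 were lower and 2 higher in ko/ko. Of the 7 members tested none was called by voom-limma or the quasi-likelihood test, and DESeq2 called Pou3f1. DESeq2 set genes of low mean count aside before its adjustment, so its adjusted p covers fewer genes than that of voom-limma.

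Pou3f1 was the member with the largest genotype difference in these cells. It measured 22.7, 16.7 and 26.1 CPM in Dram2 wt/wt and 70.4, 58.6 and 49.5 CPM in Dram2 ko/ko. All ko/ko samples lay above all wt/wt samples, a property of 5.04% of the genes tested. The log2 fold change was 1.43 ± 0.25 (SE), from 63 UMIs in wt/wt and 144 UMIs in ko/ko. It did not pass the adjustment over all genes (voom-limma adjusted p 0.12, and between 0.0652 and 0.596 with each sample left out in turn). The DESeq2 adjusted p of 0.0379 covers fewer genes and is not at the same adjustment. The fold change was between 1.29 and 1.53 when each sample was left out in turn, and 1.5 ± 0.26 within batch 1, since batch 2 holds no wt/wt sample. Since Pou3f1 was chosen with this contrast known, the value is a description. The fibroblast marker sum, most of which was Col1a1, was lower in all ko/ko samples, as 5.68% of the single genes tested were. Dcn, a marker far higher in Fibroblast 2, had a log2 fold change of −0.30 ± 1.00 (voom-limma adjusted p 0.98). The part of these markers in the Pou3f1 difference was not tested.

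The share of cells with a Pou3f1 UMI overlapped between genotypes at 8000 UMIs, but not at a lower depth or a stricter count. These shares and the split by cycling class re-cut the same 207 UMIs. They restate the contrast known when Pou3f1 was chosen and add no support to it. At 8000 UMIs it was 11.7%, 8.42% and 20.4% in wt/wt and 25.6%, 29.3% and 17.9% in ko/ko, a difference of 10.8 points (exact permutation p 0.2, adjusted over 8454 genes 0.995). At 4000 UMIs it was 8.54%, 7.64% and 10.8% in wt/wt and 18.7%, 20.6% and 16.4% in ko/ko (exact permutation p 0.1, adjusted 0.966), and 4.74% of genes lay higher in all ko/ko samples. The share with 2 or more UMIs at 8000 UMIs was 4.92%, 5.36% and 5.16% in wt/wt and 18.4%, 10.96% and 10.02% in ko/ko (exact permutation p 0.1, adjusted 0.916), as for 4.51% of genes. Without thinning the groups overlapped. In the non-cycling cells Pou3f1 measured 42.6, 27.9 and 38.1 CPM in wt/wt and 121, 66.1 and 56.1 CPM in ko/ko. In cycling cells it measured 10.6, 12.8 and 17.5 CPM in wt/wt and 0, 54.4 and 45.7 CPM in ko/ko, where the 0 came from 5 cells.

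Cdh19 was the only other member whose groups did not overlap. It measured 125, 129 and 131 CPM in wt/wt and 38.6, 77.1 and 114 CPM in ko/ko, with all ko/ko samples below, as for 5.68% of the genes tested. Its log2 fold change was −0.82 ± 0.26 (adjusted p 0.62), and −0.54 without Dram2 ko/ko replicate 1. In a further 3 members the ko/ko mean was lower and the samples overlapped. Erbb3 measured 77.0, 71.6 and 49.3 CPM in wt/wt and 43.1, 31.6 and 78.4 CPM in ko/ko (−0.66 ± 0.30, adjusted p 0.836; −0.15 without Dram2 ko/ko replicate 2). Sox10 measured 219, 158 and 206 CPM in wt/wt and 154, 129 and 206 CPM in ko/ko (−0.32 ± 0.20, adjusted p 0.869; −0.086 without Dram2 ko/ko replicate 2, −0.50 leaving out ko/ko replicate 3). Ngfr measured 433, 439 and 376 CPM in wt/wt and 377, 287 and 528 CPM in ko/ko (−0.15 ± 0.20, adjusted p 0.949).

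In the remaining members single ko/ko samples lay far apart. Gfra3 measured 114, 44.2 and 47.9 CPM in wt/wt and 2.27, 77.1 and 165 CPM in ko/ko, so the lowest and the highest sample were both ko/ko and the ko/ko mean (81.5) was above the wt/wt mean (68.6). Its fitted log2 fold change was −0.52 ± 0.84 in the voom fit and 0.59 without Dram2 ko/ko replicate 1. S100b measured 56.5, 48.9 and 46.4 CPM in wt/wt and 15.9, 38.9 and 97.0 CPM in ko/ko (−0.36 ± 0.39, adjusted p 0.936). Egr2 measured 8.07, 15.5 and 4.35 CPM in wt/wt and 45.4, 7.91 and 6.19 CPM in ko/ko and was too low to pass the filter. Dram2 ko/ko replicate 1, with 17 cells, had the least Gfra3, S100b, Cdh19 and Scn7a and the most Egr2, Gldn (629 CPM) and Gfra1 (168 CPM).

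**Figure D4:**
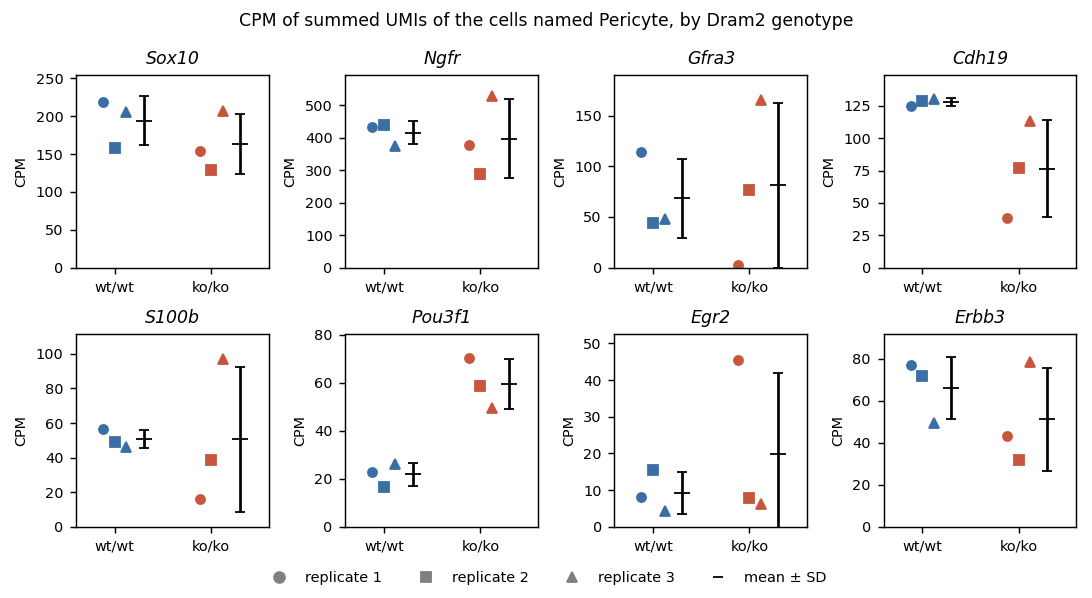
CPM of the 8 genes in the summed cells named Pericyte of each sample (points, shape by replicate number; bar, mean ± SD of 3, drawn from 0 upwards), Dram2 wt/wt in blue and Dram2 ko/ko in red. Pou3f1 lies higher and Cdh19 lower in all 3 ko/ko samples, and the other 6 genes overlap.

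At fixed depth the shares of positive cells were compared between genotypes by exact permutation tests, which with 3 samples against 3 cannot give a p under 0.1 and so call no gene. Cdh19 was found in 58.9% ± 6.49 of wt/wt and 40.7% ± 13.1 of ko/ko cells (SD, n = 3; exact permutation p 0.1, adjusted over 8454 genes 0.976). Sox10 was found in 76.6% ± 3.74 and 68.3% ± 2.47 (exact permutation p 0.1, adjusted 0.976), and Ngfr in 90.7% ± 3.74 and 90.2% ± 5.74 (exact permutation p 0.9). In both Cdh19 and Sox10 every ko/ko sample lay below every wt/wt sample at this depth, as for 6.02% of the 8454 genes. Sox10 overlapped at 4000 UMIs, where wt/wt samples held 47.6% to 56.8% and ko/ko samples 41.1% to 56.0%, and it overlapped without thinning. Cdh19 overlapped when 2 or more UMIs were required, with 22.9% in Dram2 ko/ko replicate 3 against 21.4% in Dram2 wt/wt replicate 3. The ko/ko samples lay below for Cdh19 at 4000 UMIs (as for 5.61% of genes) and without thinning (8.9% of genes), and for Sox10 when 2 or more UMIs were required (6.42% of genes).

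Of the stage lists, none of 15 immature, 14 repair, 10 myelinating and 5 non-myelinating genes tested was called between genotypes by voom-limma with all samples. Their median log2 fold changes were −0.06, −0.16, −0.14 and −0.15, where that of all genes tested was −0.0032, and the myelinating list includes Pou3f1. Id2, an inhibitor of differentiation, measured 125, 187 and 136 CPM in wt/wt and 45.4, 51.4 and 99.1 CPM in ko/ko (−1.32 ± 0.27, voom-limma adjusted p 0.189). All ko/ko samples lay below all wt/wt samples, as for 5.68% of the genes tested. DESeq2 called Id2 (−1.22 ± 0.32, DESeq2 adjusted p 0.0363) among 22 genes, again with its adjustment over fewer genes. Other list genes leaned the other way, such as Pmp22 (0.30 ± 0.14) and Uchl1 (0.20 ± 0.13), neither of them called. Gldn, of the myelinating list, measured 213, 195 and 234 CPM in wt/wt and 629, 73.1 and 111 CPM in ko/ko, so that Dram2 ko/ko replicate 1 put the ko/ko mean (271) above the wt/wt mean (214). Its fitted log2 fold change was −0.49 ± 0.56 (voom-limma adjusted p 0.941) with all samples, and it was called without Dram2 ko/ko replicate 1 (−1.33 ± 0.21, voom-limma adjusted p 0.0227).

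In other types only a few members were abundant enough to test, and none was called. Sox10 in RPE had a log2 fold change of −1.14 ± 0.90 (adjusted p 1.00), where 0% of 12333 genes were called (573 at an unadjusted p under 0.05 by voom-limma; 0 called by the quasi-likelihood test and 25 by DESeq2), and it turned to 1.05 without Dram2 ko/ko replicate 3. In Fibroblast, where 0.00503% of genes were called, Ngfr, Erbb3, S100b and Egr2 lay between −0.21 and 0.16. In Fibroblast 2, where 0.222% were called, Egr2 was at 0.66 ± 0.21 (adjusted p 0.445) and S100b at −0.32 ± 0.33. In Fibroblast proliferating, where 0.624% were called, S100b was at −0.08 and Egr2 at −0.01. The background in these types varied with the test, with 321, 168 and 320 genes called by DESeq2, 0, 2 and 0 with the replicate block, and 0 to 234, 0 to 121 and 0 to 290 with each sample left out, the highest counts being without Dram2 ko/ko replicate 1. Most DESeq2 calls, 311, 166 and 311, were lower in ko/ko.

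Dividing and other cells named Pericyte were compared within samples, a contrast the choice of genes did not use. A cell counted as cycling when its Mki67 and Top2a UMIs summed to 2 or more, which gave 168 cycling cells (median 16991 UMIs) and 140 others (median 11146 UMIs). The cut is on a range, with 34 cells at 1 UMI and 19 at 2. Of 5727 genes tested with the sample as a factor, 9.11% were higher and 9.95% lower in cycling cells, and 5 of the 7 members tested were lower and none higher.

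S100b had the largest fall among the members tested. It stood at 84.9 CPM ± 51.5 in other cells and 29.8 ± 16.3 in cycling cells (SD, n = 6), lower in 6 of 6 samples, with a log2 fold change of −1.58 ± 0.20 (adjusted p 1.9e-05). Gfra3 fell from 107 ± 78.0 to 56.2 ± 49.0, lower in 5 of 6 samples (−1.10 ± 0.20, adjusted p 0.000524). The exception was Dram2 ko/ko replicate 1, where 1 UMI in all was counted. Cdh19 fell from 146 ± 60.9 to 74.6 ± 32.0 in 6 of 6 samples (−0.94 ± 0.16, adjusted p 0.000354).

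The receptors fell as well. Ngfr measured 498, 614 and 443 CPM in other wt/wt cells and 393, 379 and 327 CPM in cycling wt/wt cells. In ko/ko it measured 431, 347 and 897 CPM in other and 302, 254 and 313 CPM in cycling cells, lower in 6 of 6 samples (−0.69 ± 0.12, adjusted p 0.000626). Erbb3 fell from 79.3 ± 18.6 to 42.0 ± 29.0 in 6 of 6 samples (−0.85 ± 0.24, adjusted p 0.0179), and without Dram2 ko/ko replicate 2 its adjusted p was 0.0531.

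Sox10 did not fall. It measured 246, 149 and 197 CPM in other wt/wt cells and 203, 161 and 212 CPM in cycling wt/wt cells, and 168, 123 and 191 CPM in other and 135, 132.5 and 216 CPM in cycling ko/ko cells. Its log2 fold change was −0.08 ± 0.11 (adjusted p 0.665), and it was lower in 2 of 6 samples. Pou3f1 was lower in 6 of 6 samples (58.7 ± 33.6 against 23.5 ± 21.5 CPM) with a log2 fold change of −1.02 ± 0.36 that missed the threshold (adjusted p 0.0575, and 0.0295 in the quasi-likelihood test). The Pou3f1 value was −0.34 ± 0.32 when the classes were set after thinning, and it ranged from −0.78 to −1.69 with each sample left out. Egr2 was too low to be tested.

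**Figure D5:**
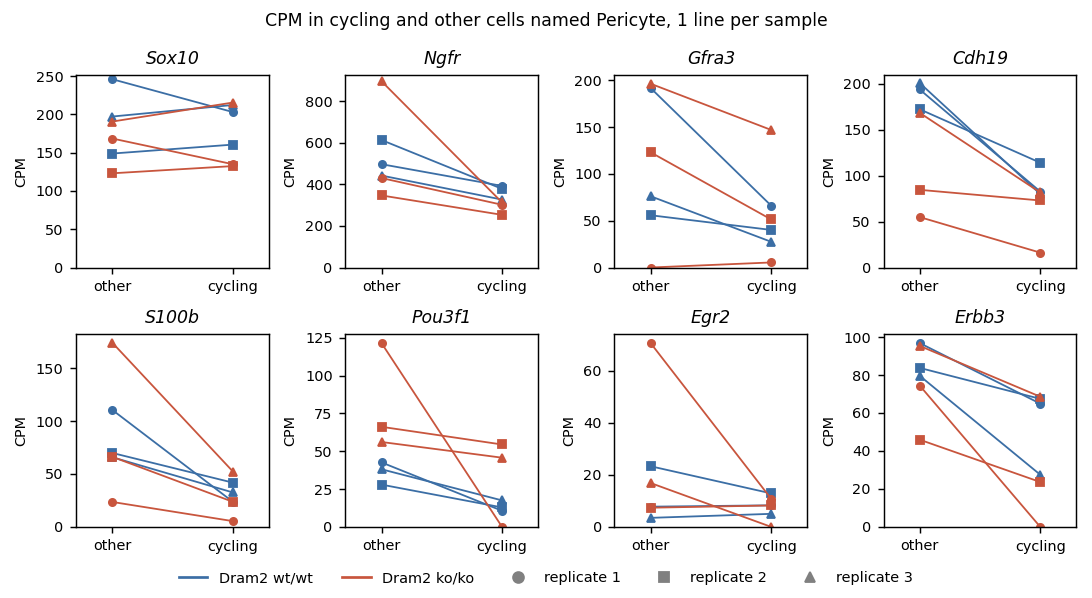
CPM of the 8 genes in other and in cycling cells named Pericyte, with 1 line per sample (blue, Dram2 wt/wt; red, Dram2 ko/ko; shape by replicate number). The lines of S100b, Cdh19, Ngfr and Erbb3 fall in all 6 samples and those of Sox10 cross, rising in 4 and falling in 2.

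Genes of the stage lists fell too, where 9.95% of all genes tested were lower. Of 10 myelinating genes tested, 7 were lower and none higher, with a median log2 fold change of −0.92 against −0.04 over all genes tested. Mbp was at −1.41 ± 0.25 and Gldn at −1.17 ± 0.15. Of 12 repair genes 8 were lower (median −0.53), among them Atf3, a stress-induced factor, at −2.25 ± 0.26 and Jun at −0.60 ± 0.13. Of 12 immature genes 5 were lower (median −0.32), including Fabp7 at −0.97 ± 0.18 and Sox2 at −0.44 ± 0.14. The immature list contains Ngfr and Gfra3, the repair list Ngfr and the myelinating list Pou3f1. Ngfr and Sox2 count in both the immature and the repair list, so the lists are not independent.

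Not every glial transcript fell. Gfra2 rose in cycling cells from 35.0 CPM ± 9.91 to 61.9 ± 10.0 in 6 of 6 samples (0.78 ± 0.22, adjusted p 0.0169), while the related co-receptor Gfra1 fell by 0.70 on the log2 scale (SE 0.16, adjusted p 0.00394). Artn fell too (−1.01 ± 0.25). Of 8 immediate early genes tested 5 were lower, among them Atf3 and Jun, which the repair list also counts. Col1a1 was higher (0.42 ± 0.14). The largest rises were those of Top2a and Mki67, which defined the classes, with Kif20b (4.87), Hist1h1b (4.45) and Nusap1 (4.27), and the largest falls were those of Kcna1 (−2.63), Abca1 (−2.41), Egfl8 (−2.33), Atf3 (−2.25) and Lgals3 (−2.12, all log2 fold changes).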

How the data were processed

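Single-cell RNA-seq (10x Genomics 3′ chemistry, no strand setting given in the sources used here) was measured in 6 samples. Per the submitters' processing notes the reads were processed with Cell Ranger 3.1.0 on GRCm38, and the authors deposited raw UMI counts per cell together with their cell types from Seurat clusters. Those counts, 2140 to 6648 cells and 96808998 to 122746184 UMIs per sample, were used as deposited. Cell names in the files are serial numbers, so barcodes shared by libraries were not analysed here. No column of per-sample values was left unused (0).

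From the counts, CPM were computed on the deposited UMIs summed per sample and cell type (10 or more cells). Genotypes were compared per type with voom-limma (limma 3.58.1, TMM factors and filterByExpr of edgeR 4.0.16, R 4.3.3, Benjamini-Hochberg over all genes tested), and cycling with other Pericyte cells with the sample as a factor (5 or more cells per class). Adjusted p under 0.05 was called. edgeR quasi-likelihood and DESeq2 1.42.0 were alternatives, with other size factors, no filter, a batch covariate, a replicate block, cells filtered, other cycling rules and each sample left out. DESeq2 adjusted only over the genes left by its own filter on mean count. Shares of cells with a UMI were those expected after thinning cells to 8000 UMIs and were compared by exact permutation tests. Joint detection, list genes per cell and r after thinning used a single random draw from each cell. Intervals and the limit from a count of 0 (3 counts) cover counting error only. Doublets were scored with Scrublet (scanpy 1.11.5), whose 7 calls were too few to use, so the top 5% of scores were removed as an alternative. The counts of list genes at 5 CPM or more, the joint detection after thinning and the shares over all genes tested were added after seeing the data. Scripts were tested on simulated data.

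The 8 genes and the gene lists were chosen with earlier results of these data known. Genes named besides the members are, by a fixed rule, up to 4 of each list with the highest mean CPM in Pericyte, defining markers at 0, called genes where 5 or fewer, the 5 genes most like Sox10 and Pou3f1, and the 5 largest changes each way in the cycling comparison. Some list genes enter the list counts but are not reported here by name. Further list genes were named after their values were seen. Positions are from the GENCODE annotation of GRCm38 and promoters from RefSeq.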

Additional observations from a re-analysis of the deposited data

Results flagged for a closer look

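Of 42 values tested over the 6 samples of cells named Pericyte, 4 had 1 sample far from the other 5, where chance flags about 1 in 20. Egr2 was at 45.4 CPM in Dram2 ko/ko replicate 1 and at 4.35 to 15.5 CPM elsewhere. Cdk1 was low in the same sample at 120 CPM against 261 to 318 CPM. That sample held 17 of these cells, 29.4% of them cycling, where the other samples had 46.9% to 63.2%. In Dram2 wt/wt replicate 2 Des was at 111 CPM against 2.27 to 33.0 CPM, and Col3a1 at 278 CPM against 29.5 to 112 CPM.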

How the results depend on the processing

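Genes called between genotypes in Pericyte numbered 1 by voom-limma, 0 by the quasi-likelihood test (430 at an unadjusted p under 0.05), 22 by DESeq2, 0 with batch as covariate, 0 with the replicate block, and 0 to 21 with each sample left out, 21 being without Dram2 ko/ko replicate 1. Cycling calls ranged from 725 to 1113 with each sample left out, 725 being without Dram2 wt/wt replicate 1. Samples of the same replicate number were only weakly alike (correlations of deviations 0.049, 0.041 and −0.015). Only wt/wt replicate 1 was closest to the ko/ko sample of its own number. With so few samples per genotype this check cannot exclude pairing.

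Genotype log2 fold changes that turned direction, none of them called, were as follows. In Pericyte, Ngfr was 0.13 without ko/ko replicate 2, S100b 0.0092 without ko/ko replicate 1, and Gfra3 0.20 by quasi-likelihood, 0.26 by DESeq2, 0.55 with the replicate block, 0.0048 without wt/wt replicate 1 and 0.59 without ko/ko replicate 1. In RPE, Sox10 was 0.97 with the batch covariate and 1.05 without ko/ko replicate 3. In Fibroblast, with the batch covariate, without wt/wt replicate 3 and without ko/ko replicate 3, S100b was −0.036, −0.0011 and −0.018 and Erbb3 0.17, 0.055 and 0.18. S100b was 0.054 in Fibroblast 2 without ko/ko replicate 1, and in Fibroblast proliferating 0.0086 without wt/wt replicate 1 and 0.12 without ko/ko replicate 2. Egr2 in Fibroblast proliferating was 0.0017 with RLE factors, 0.019 without top doublet scores, 0.18 without wt/wt replicate 2, 0.061 without ko/ko replicate 1 and 0.014 without ko/ko replicate 3. Sox10 in cycling cells was 0.088 with classes set after thinning.

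The difference in the share of Pericyte cells ranged from −0.475 to 0.30 points with each sample left out (0.30 without wt/wt replicate 1, 0.060 without ko/ko replicate 1, 0.16 without ko/ko replicate 3). At fixed depth the leave-one-out range was −2.49 to 2.78 points for Ngfr (1.56 without wt/wt replicate 1, 2.78 without ko/ko replicate 2), −12.0 to 7.29 for Gfra3 (2.74 without wt/wt replicate 1, 7.29 without ko/ko replicate 1) and −4.12 to 12.8 for Egr2 (−4.12 without ko/ko replicate 1). It was 0.360 for Ngfr without thinning and 0.392 for Gfra3 at 4000 UMIs. With each sample left out, the lowest value was −0.38 for Ngfr, −1.33 for Gfra3 and −0.69 for S100b in Pericyte, −2.19 for Sox10 in RPE, −0.23 for Erbb3 in Fibroblast, −0.62 for S100b in Fibroblast 2, and −0.18 for S100b and −0.13 for Egr2 in Fibroblast proliferating, and the highest for S100b in Fibroblast was 0.24. The causes were not tested. All 24 alternative levels and all 12 alternative correlations (chosen after seeing the data) moved by less than the SD between samples. That limit is wide and shows little. For Egr2 it was 15.6 CPM on a mean of 14.6 CPM. The r of Sox10 with Ngfr counted as unmoved although it fell from 0.33 to 0.14 after thinning. In Pericyte, Egr2 and Pou3f1 rest on 62 and 207 UMIs, which limits their precision.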
